A study of Mus musculus with 2 samples.

Results

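The RNase A family is a group of small secreted ribonucleases whose genes lie in clusters on mouse chromosome 14. The 9 genes described here are Rnase1, Rnase4, Rnase6, Rnase9, Rnase10, Rnase11, Rnase12, Rnase13 and Ang, taken by symbol from 43346 Ensembl genes, together with their 12 transcripts. All 9 were found once in each gene table. The source was polyadenylated RNA of the gonadal fat pad, a white fat depot beside the gonads, from C57BL/6J mice aged 8 weeks, with no treatment or genetic change named. The 2 libraries, replicate 2 and replicate 1, form 1 group. They come from separate biosamples of pooled males and females with the same donor identifier. The number of mice behind each is not given in the sources used, so the spread between them may be partly technical. No condition was compared, and no test between conditions exists.

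Enzymes of this family cut single-stranded RNA outside the cell or in secretory compartments. A lysine in the active site, within a short conserved stretch called the RNase A signature, takes part in the cut. Several members depart from that stretch and are known in mammals as proteins that the epididymis secretes onto maturing sperm. The epididymis touches the gonadal fat pad in males.

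The coding stretch that carries the signature divided the 9 genes into 2 sets, and it is shown because the results below are ordered by these sets. The signature is a run of 7 codons in which 5 are fixed, namely cysteine, lysine, 2 free places, asparagine, threonine and phenylalanine. Coding sequences of the leading transcript of each gene were read from the GENCODE M21 annotation on mm10. All 5 fixed codons were present in Rnase4 (chr14:51105022-51105042, plus strand), Ang (chr14:51101590-51101610, plus), Rnase6 (chr14:51130339-51130359, plus) and Rnase1 (chr14:51145683-51145703, minus). Among 22527 genes with a coding sequence, 16 carried the signature, or 0.0710%, and 4 of those were among these 9. In Rnase10 (chr14:51009659-51009679, plus), Rnase13 (chr14:51922405-51922425, minus) and Rnase11 (chr14:51049757-51049777, minus) the closest stretch matched 3 of the 5 codons, and only that of Rnase13 kept the lysine codon. No stretch of Rnase9 or Rnase12 matched more than 2. Capitals mark the fixed codons that match, read 5′ to 3′ on the coding strand.
Rnase4: TGCAAAcgcttcAACACCTTC
Ang: TGCAAAgatgtcAACACCTTT
Rnase6: TGTAAAcagataAACACCTTT
Rnase1: TGCAAGcccgtgAACACCTTC
Rnase13: TGTAAAtacagcgagagcTTC
Rnase10: TGCataaaccagtacACGTTC
Rnase11: TGTcagttgggcAATgacTTT

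Levels are given as TPM, the deposited abundance per length whose sum is the same in each library. Expressed here means that neither library lay under 1 TPM. By that rule all 9 genes were expressed, against 33.0% of all genes. The 9 genes together held 1898 TPM in replicate 2 and 2554 TPM in replicate 1. The median of all expressed genes was 12.7 TPM in replicate 2 and 14.2 TPM in replicate 1. The depth behind these values was 55138711 estimated fragments in replicate 2 and 48206393 in replicate 1. Intervals below are exact 95% Poisson intervals of the rounded fragment count carried to TPM, and they cover counting error only.

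Fat and epididymis were both represented in the RNA. All 10 adipocyte markers were expressed, with a median of 1581 TPM in replicate 2 and 998.5 TPM in replicate 1. All 15 markers of the proximal epididymal epithelium were expressed, with a median of 1874 TPM in replicate 2 and 2327 TPM in replicate 1. None of 4 ovary and uterus markers was expressed. Their summed level was 0.42 TPM in replicate 2 and 0.90 TPM in replicate 1. The labels name both sexes, and the part of each sex in the RNA was not tested. In bulk RNA, fewer cells of a type and less RNA per cell cannot be told apart, and the cells that carried each transcript were not determined.

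As a set, the members without the full signature held most of the family RNA, although Rnase11 among them was low. The 5 genes Rnase9 to Rnase13 held 88.4% of the family TPM in replicate 2 and 94.2% in replicate 1. By fragments, which carry no length scaling, they held 85.1% in replicate 2 and 92.9% in replicate 1. For the 4 genes with the full signature the sum was 219.8 TPM in replicate 2, against 148.0 TPM in replicate 1.

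**Figure D1:**
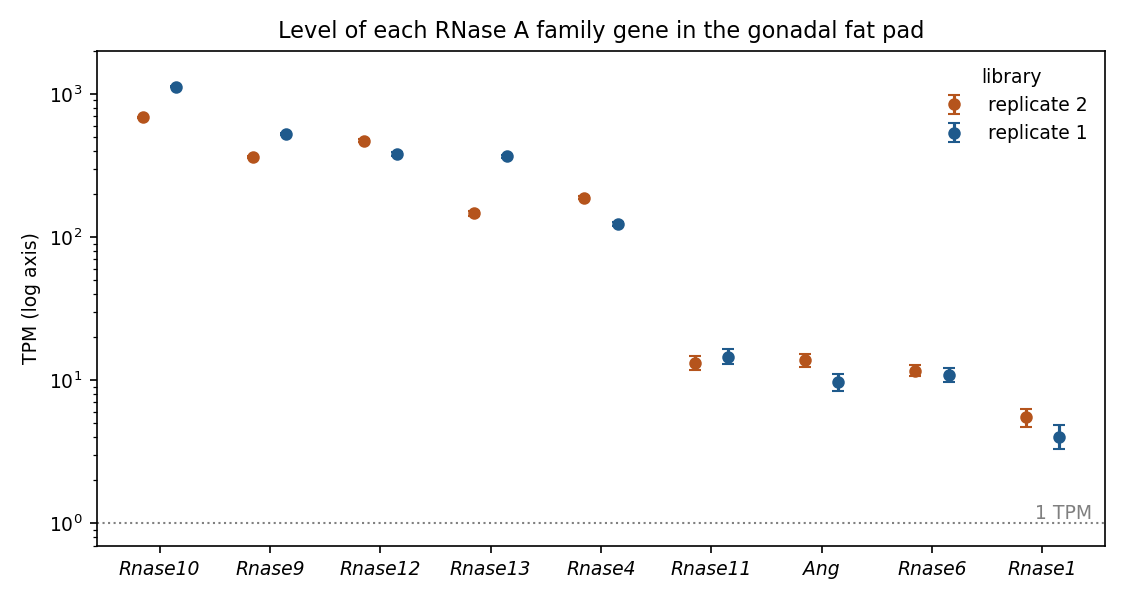
TPM on a log axis for the 9 genes in order of mean level, replicate 2 left of replicate 1, with bars for 95% counting intervals. Rnase10 stands highest at 685.3 and 1120 TPM and Rnase1 lowest at 5.51 and 4.02 TPM, and a gap separates Rnase4 from Rnase11.

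Rnase10 (ENSMUSG00000021872, chr14:51007751-51010758, plus strand) had the highest level of the family in both libraries. Gene positions here and below are from GENCODE M21 on mm10. In mice its product is secreted by the proximal epididymis, and its loss disturbs sperm maturation. It stood at 685.3 TPM in replicate 2 (interval 678.9 to 691.6) and 1120 TPM in replicate 1 (1111 to 1129), from 44734 and 59026 fragments. That placed it at rank 184 of all genes in replicate 2 and rank 116 in replicate 1. Replicate 1 was higher by 1.63-fold.

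Rnase9 (ENSMUSG00000052382, chr14:51038459-51041869, minus strand) encodes another secreted protein known from the mouse epididymis. Its level was 360.8 TPM in replicate 2 (355.2 to 366.4) and 522.7 TPM in replicate 1 (515.3 to 530.2). As with Rnase10, replicate 1 was the higher library, here by 1.45-fold. The TPM ratio of Rnase10 to Rnase9 was 1.90 in replicate 2 and 2.14 in replicate 1, so this pair kept nearly the same proportion. The start regions of both genes are shown since they had the highest mean levels of the family and shifted the same way, although Rnase12 stood above Rnase9 in replicate 2. Rnase10 has 2 RefSeq windows, and the one shown belongs to the transcript that carried 99.1% of its TPM in replicate 2 and 99.7% in replicate 1. The capital marks the first transcribed base, in windows of 250 bases before to 50 after the start (RefSeq, build GRCm38.p6).
Rnase10 (chr14:51007679-51007978, plus): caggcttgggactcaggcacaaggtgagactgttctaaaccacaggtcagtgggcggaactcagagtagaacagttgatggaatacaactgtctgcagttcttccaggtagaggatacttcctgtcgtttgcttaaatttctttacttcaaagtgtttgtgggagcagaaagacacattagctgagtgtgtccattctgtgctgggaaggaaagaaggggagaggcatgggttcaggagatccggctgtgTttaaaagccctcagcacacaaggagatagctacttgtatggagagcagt
Rnase9 (chr14:51041818-51042117, minus): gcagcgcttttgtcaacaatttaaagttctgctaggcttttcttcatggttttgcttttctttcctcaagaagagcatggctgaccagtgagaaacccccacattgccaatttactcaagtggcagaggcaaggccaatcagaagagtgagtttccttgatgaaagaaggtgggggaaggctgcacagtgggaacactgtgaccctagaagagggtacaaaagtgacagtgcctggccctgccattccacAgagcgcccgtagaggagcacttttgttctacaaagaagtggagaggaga

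All 9 genes had RefSeq windows, 13 in all, but these are not 13 separate regions. The same window is listed for Rnase4 and for Ang, and some windows of Rnase10 and of Rnase6 overlap each other within the gene. Motifs were searched on both strands. CCGGAA, the core bound by ETS factors, was in none of the 13 and in 14.9% of all. TATAAA was in none of the 13 and in 13.6% of all. No match says only that these letters are not in these windows.

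Rnase12 (ENSMUSG00000068407, chr14:51056698-51057661, minus strand), whose counted transcript has 1 exon in GENCODE M21, went the other way from Rnase9 and Rnase10. It stood at 472.2 TPM in replicate 2 (461.2 to 483.3) and 381.8 TPM in replicate 1 (370.9 to 392.9), from 7051 and 4677 fragments. Replicate 2 was higher by 1.24-fold. Its counted transcript is 545 nt long and its effective length was 321.5 nt in replicate 2, against 328.5 nt in replicate 1. Its TPM thus rests on a short divisor. GENCODE M21 also holds a 673 nt transcript of Rnase12 that was not counted, so its level per length depends on the annotation.

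Rnase13 (ENSMUSG00000068392, chr14:51921362-51922773, minus strand) had the largest ratio between the libraries of the 9 genes. It stood at 146.6 TPM in replicate 2 (141.1 to 152.3) and 367.2 TPM in replicate 1 (357.5 to 377.0), from 2659 and 5442 fragments. Replicate 1 was higher by 2.50-fold. The deposited transcript is 614 nt long, whereas the same transcript is 1412 nt in GENCODE M21, so its level per length depends on the annotation while the ratio between libraries much less so. The TPM ratio of Rnase13 to Rnase12 was 0.31 in replicate 2 and 0.96 in replicate 1.

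Rnase11 (ENSMUSG00000059648, chr14:51049451-51050163, minus strand) was the low member of the non-canonical set. It stood at 13.2 TPM in replicate 2 (11.7 to 14.7) and 14.6 TPM in replicate 1 (12.9 to 16.4), from 299 and 270 fragments. These intervals overlap. Rnase9 lies next to it on 1 side and Rnase12 on the other, both on the same strand. The TPM of Rnase9 was 27.4 times that of Rnase11 in replicate 2 and 35.9 times in replicate 1.

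**Figure D2:**
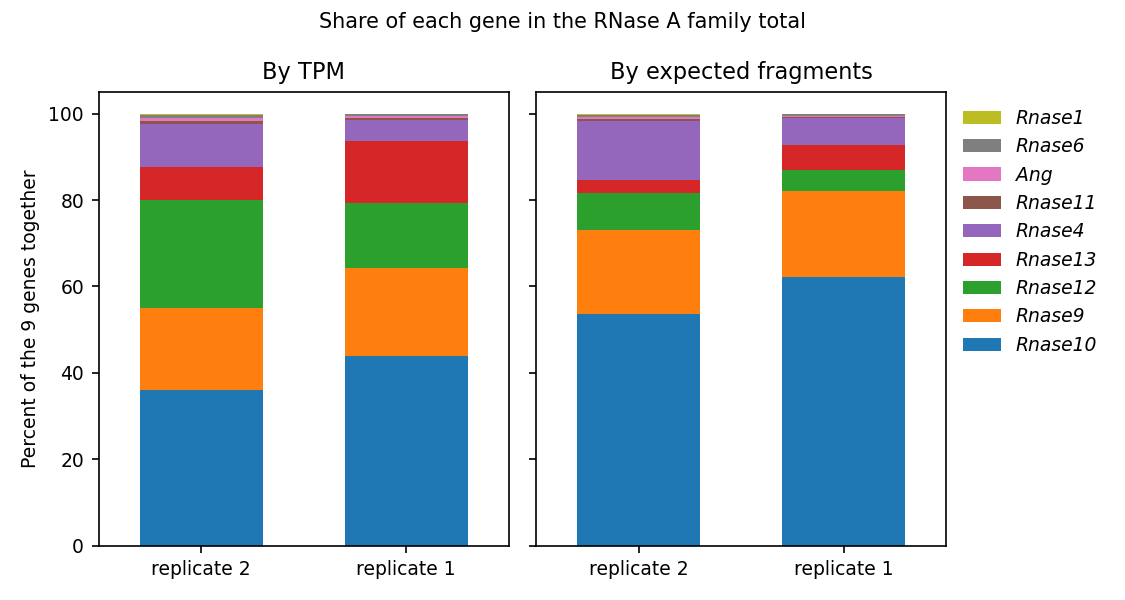
Stacked percent of the 9 genes together, by TPM (left panel) and by expected fragments (right panel), replicate 2 left of replicate 1. By TPM Rnase10 takes 36.1% and 43.9% and Rnase12 24.9% and 14.9%, and by fragments Rnase10 takes 53.7% and 62.1% and Rnase12 8.46% and 4.92%.

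Rnase4 and Ang, which share a start region, form the next pair. Rnase4 (ENSMUSG00000021876, chr14:51091077-51106151, plus strand) encodes a ribonuclease that prefers to cut after uridine. Ang (ENSMUSG00000072115, chr14:51091150-51102009, plus strand) encodes angiogenin, which cuts transfer RNA under stress and promotes vessel growth. Rnase4 stood at 188.8 TPM in replicate 2 (185.3 to 192.2) and 123.4 TPM in replicate 1 (120.3 to 126.5), and Ang at 13.8 TPM in replicate 2 (12.5 to 15.3) and 9.67 TPM in replicate 1 (8.44 to 11.1). For both genes replicate 2 was higher, by 1.53-fold for Rnase4 and 1.43-fold for Ang. The TPM ratio of Rnase4 to Ang was 13.6 in replicate 2 and 12.8 in replicate 1, so the pair moved together at a nearly fixed proportion.

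In GENCODE M21 the first exons of the pair overlapped at 2 places, with different starts and a common end at each. RefSeq instead starts both genes at the same upstream base, chr14:51091077. The overlaps given here are those of M21 and depend on the annotation. The upstream transcripts of Rnase4 (ENSMUST00000022428) and Ang (ENSMUST00000171688) overlap over 104 bases of their first exons (chr14:51091150-51091253, plus strand, mm10), with the same last base. The downstream transcripts (ENSMUST00000169895 of Rnase4 and ENSMUST00000069011 of Ang) overlap over 115 bases of first exons (chr14:51096359-51096473). The second exon of each transcript holds the gene's own sequence. The upstream transcript carried 98.8% of the Rnase4 TPM in replicate 2 and 98.3% in replicate 1. The upstream Ang transcript carried 94.1% of the Ang TPM in replicate 2 and 92.9% in replicate 1. The downstream Ang transcript rested on 33.2 estimated fragments in replicate 2 (posterior SD 6.17) and 22.6 in replicate 1 (posterior SD 5.09). The downstream Rnase4 transcript rested on 172.0 fragments in replicate 2 (posterior SD 21.4) and 124.8 in replicate 1 (posterior SD 17.2). The upstream exon was the main first exon of both genes in both libraries.

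**Figure D3:**
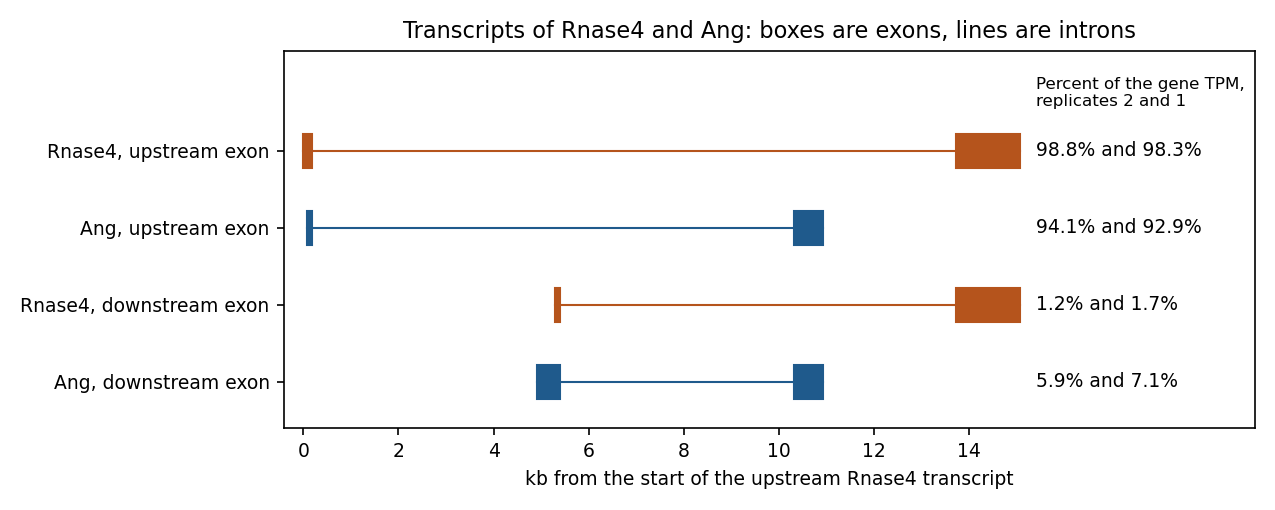
Transcripts of Rnase4 (orange) and Ang (blue) by distance in kb from the start of the upstream Rnase4 transcript, boxes for exons and lines for introns as in GENCODE M21, with the percent of each gene's TPM in replicates 2 and 1 at the right. The pair of transcripts from the upstream exon carries 98.8% and 98.3% of Rnase4 and 94.1% and 92.9% of Ang.

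RefSeq gives Rnase4 and Ang the same upstream window, shown here with the downstream window that it assigns to Rnase4 and that also precedes the downstream Ang transcript. The capital again marks the first transcribed base. The upstream window held 54.7% G and C and the downstream window 45.3%, against a median of 52.7% over all windows.
Rnase4 and Ang, upstream (chr14:51090827-51091126, plus): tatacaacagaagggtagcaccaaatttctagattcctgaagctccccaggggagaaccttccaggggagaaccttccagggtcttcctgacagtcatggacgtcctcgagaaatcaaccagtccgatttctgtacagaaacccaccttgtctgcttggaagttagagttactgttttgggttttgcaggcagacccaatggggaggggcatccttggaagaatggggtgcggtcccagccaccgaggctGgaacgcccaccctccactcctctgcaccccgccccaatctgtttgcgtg
Rnase4, downstream (chr14:51095750-51096049, plus): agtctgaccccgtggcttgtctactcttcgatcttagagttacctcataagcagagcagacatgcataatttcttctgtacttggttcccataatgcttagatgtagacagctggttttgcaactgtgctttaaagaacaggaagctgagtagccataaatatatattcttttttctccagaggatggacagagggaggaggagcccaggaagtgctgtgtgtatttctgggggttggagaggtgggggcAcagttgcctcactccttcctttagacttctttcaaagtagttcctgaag

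The shared exons limit how well fragments can be told apart. In GENCODE M21, 30 of the 653 stretches of 76 nt (the read length) in the upstream Ang transcript also occur in Rnase4, or 4.59%, and 2.08% of those in the upstream Rnase4 transcript also occur in Ang. The downstream Ang transcript shares stretches with Rnase4 and with Ang2, 5.79% in all. For the transcripts of the other 7 genes no such stretch occurred in another gene. The deposited upstream Ang transcript is 799 nt and the downstream Rnase4 transcript 1819 nt, against 728 nt and 1460 nt in M21, so their drawn ends differ from those counted. The percents of shared stretches therefore hold for M21 only. Sharing between the longer transcripts that were counted was not computed and may be larger.

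Rnase6 and Rnase1 were low. Rnase6 (ENSMUSG00000021880, chr14:51123908-51132187, plus strand), an antimicrobial ribonuclease of phagocytes, stood at 11.7 TPM in replicate 2 (10.6 to 12.8) and 10.9 TPM in replicate 1 (9.76 to 12.1). Its intervals overlap. All 8 macrophage markers were expressed, with a summed level of 800.9 TPM in replicate 2 (range of members 5.95 to 337.4) and 667.2 TPM in replicate 1 (7.89 to 281.8). Their part in the level of Rnase6 was not tested.

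Rnase1 (ENSMUSG00000035896, chr14:51144998-51146785, minus strand) encodes the pancreatic ribonuclease, which endothelial cells also secrete in humans. It stood at 5.51 TPM in replicate 2 (4.76 to 6.35) and 4.02 TPM in replicate 1 (3.31 to 4.84), from 191 and 113 fragments, and the intervals overlap narrowly. Exocrine pancreas markers differed between the libraries in the same direction. The 6 markers summed to 51.2 TPM in replicate 2 (0.40 to 27.2) and 6.85 TPM in replicate 1 (0.040 to 3.56), and 2 of 6 were expressed. Ctrb1, a chymotrypsinogen gene, stood at 27.2 TPM in replicate 2 and 3.56 TPM in replicate 1. Cela2a, a pancreatic elastase, stood at 12.5 TPM in replicate 2 and 2.02 TPM in replicate 1. The 7 endothelial markers, all expressed, summed to 672.9 TPM in replicate 2 (7.82 to 340.7) and 589.3 TPM in replicate 1 (8.49 to 262.4). The part of either cell type in the level of Rnase1 was not tested.

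By mean TPM with SD over the 2 libraries, the order was Rnase10 at 902.7 ± 307.5, Rnase9 at 441.7 ± 114.5, Rnase12 at 427.0 ± 63.9, Rnase13 at 256.9 ± 155.9, Rnase4 at 156.1 ± 46.2, Rnase11 at 13.9 ± 1.01, Ang at 11.8 ± 2.94, Rnase6 at 11.3 ± 0.56 and Rnase1 at 4.77 ± 1.05. The ranges of the 2 libraries overlapped between neighbours for Rnase9 and Rnase12, for Rnase13 and Rnase4, for Rnase11 and Ang, and for Ang and Rnase6, so those orders are not settled. For the other 4 steps the ranges did not overlap. The step between Rnase12 and Rnase13 is still not settled, since the SDs about their means overlap, their counting intervals in replicate 1 overlap, and by fragments Rnase13 was the higher in replicate 1. In replicate 2 Rnase12 stood above Rnase9 and Rnase4 above Rnase13, and in replicate 1 both orders were the reverse.

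Along the chromosome the family formed a dense run with Rnase13 far apart. Between Rnase10 and Rnase1 (chr14:51007751-51146785, mm10) lay 10 genes, 8 of them members. The other two were Eddm3b and the olfactory receptor gene Olfr750, which was not expressed. Eddm3b, an epididymal gene related to the RNase A family, stood at 94.3 TPM in replicate 2 and 117.6 TPM in replicate 1. Rnase13 started 913.6 kb from Rnase10. The relatives Rnase2b, Ang2, Ear14, Rnase2a, Ang4 and Ear6 lay between Rnase1 and Rnase13, so the wider family is not confined to the run. From 100 kb before Rnase10 to 100 kb after Rnase13, 12 of 44 genes other than members were expressed, against 33.0% of all genes. The median of these 44 was 0 TPM in both libraries, and that of all genes was 0.03 TPM in both, so the surroundings were not unusually silent. After Eddm3b, the highest were Ndrg2 at 82.9 TPM in replicate 2 and 114.4 TPM in replicate 1 and Arhgef40 at 79.2 TPM in replicate 2 and 115.8 TPM in replicate 1. Gm49342 stood at 78.5 TPM in replicate 2 and 98.2 TPM in replicate 1, Pip4p1 at 72.6 TPM in replicate 2 and 91.2 TPM in replicate 1, and Osgep at 67.6 TPM in replicate 2 and 83.1 TPM in replicate 1. Rnase10, Rnase9, Rnase12, Rnase13 and Rnase4 each had a higher mean level than these 6.

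**Figure D4:**
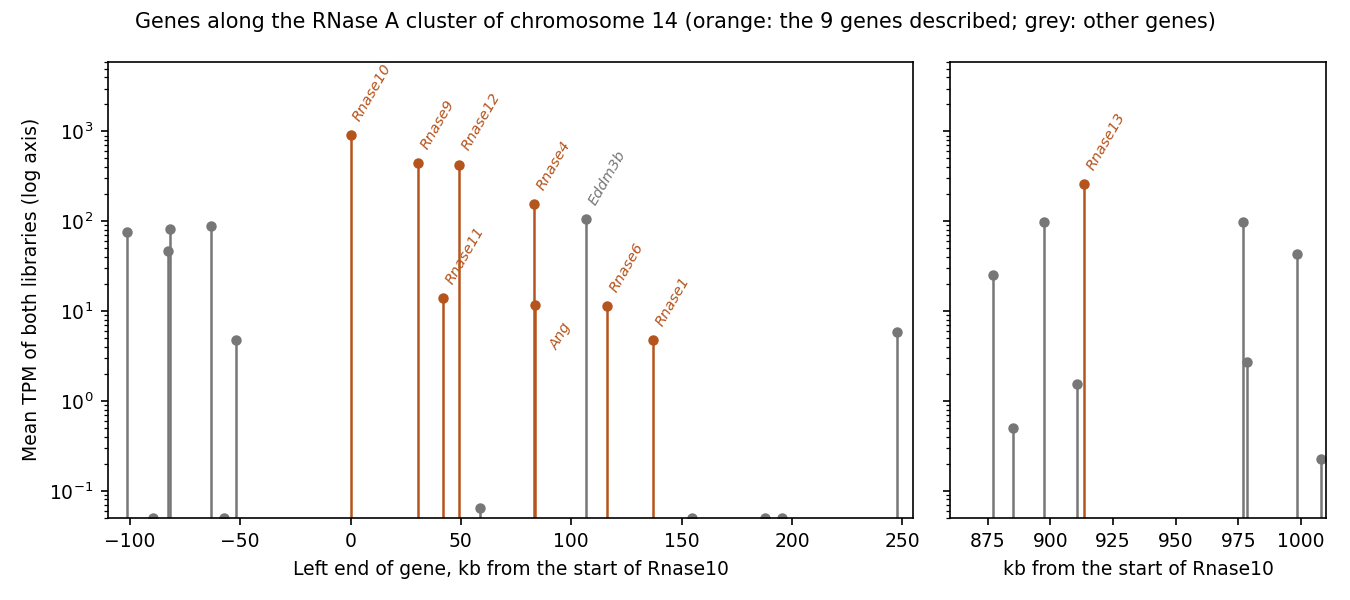
Mean TPM of both libraries on a log axis for each gene against the distance of its left end from the start of Rnase10 in kb, in 2 windows, with values under the axis drawn at its foot. The described genes (orange) from Rnase10 to Rnase1 crowd together, and Rnase13 stands 913.6 kb away among other genes (grey). The stretch between the windows, where the relatives Ang4 and Ear6 lie, is not drawn.

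Close relatives outside the 9 were mostly silent. Of 16 relatives listed, 12 were matched in the tables and 2 were expressed, namely Eddm3b and Ear2. Ear2, an eosinophil-associated ribonuclease gene, stood at 29.2 TPM in replicate 2 and 18.1 TPM in replicate 1, and 22.8% of its 76 nt stretches occur in other Ear genes or pseudogenes, so its level is uncertain. Rnase2a stood at 11.5 TPM in replicate 2 from 247 fragments and 0.23 TPM in replicate 1 from 4 fragments. None of 5 eosinophil markers was expressed, with a summed level of 1.06 TPM in replicate 2 and 0.34 TPM in replicate 1. The relatives Ang2, Ang4, Ang5, Ang6, Ear10, Ear14 and Rnase2b had 0 fragments in both libraries. A count of 0, for which up to 3 fragments are allowed, sets a limit of 0.30 TPM in replicate 2, and of 0.36 TPM in replicate 1, for Ang2, the largest of these limits. These limits cover counting error only, and since Ang2 shares stretches with Ang and Ear10 with Ear2, fragments of those genes could have been assigned to the other copy.

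Genes that act on or beside the family were expressed. Rnh1, the cytosolic inhibitor that binds these ribonucleases, stood at 181.4 TPM in replicate 2 and 194.5 TPM in replicate 1. Plxnb2, a receptor for angiogenin, stood at 70.1 TPM in replicate 2 and 89.6 TPM in replicate 1. Among other ribonucleases, Rnasek stood at 282.3 TPM in replicate 2 and 279.5 TPM in replicate 1. The lysosomal RNase T2 genes Rnaset2b and Rnaset2a stood at 151.1 and 73.7 TPM in replicate 2 and at 239.6 and 138.6 TPM in replicate 1, and as close copies their split is uncertain.

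Regulators of the epididymal epithelium were all expressed, 9 of 9, with a median of 40.0 TPM in replicate 2 and 49.1 TPM in replicate 1. They were led by Cebpb at 124.6 TPM in replicate 2 and 172.7 TPM in replicate 1, Pax8 at 70.0 TPM in replicate 2 and 113.6 TPM in replicate 1, and the ETS factor gene Etv5 at 71.0 TPM in replicate 2 and 111.2 TPM in replicate 1. Dusp6, a phosphatase of the same growth factor pathway, stood at 51.3 TPM in replicate 2 and 55.8 TPM in replicate 1.

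The counting intervals of the libraries did not overlap for 6 of the 9 genes, Rnase10, Rnase9, Rnase12, Rnase13, Rnase4 and Ang. That held for 57.6% of the 16920 genes with a mean of 20 or more fragments, so a share of this size is common between these libraries. Overlap of 2 intervals does not place a difference within counting error, so Rnase11, Rnase6 and Rnase1 are not called equal between the libraries. A ratio past 2 in either direction, on the scale of log2(TPM + 1), was reached by Rnase13 alone, 1 of 9, against 2.70% of the same genes (1.15% higher in replicate 2 and 1.54% higher in replicate 1). That is 195 genes higher and 261 lower in replicate 2, a split that TMM scaling turned to 228 and 170, while Rnase13 was past 2 under each scaling tried. Rnase13 had a log2 ratio of -1.32, replicate 2 over replicate 1, which lay at percentile 0.69 of 14875 genes whose mean TPM was at least 1. Rnase10 had -0.71 and Rnase9 -0.53, at percentiles 6.22 and 13.0. At the other end Rnase4 had 0.61 and Ang 0.47, at percentiles 96.3 and 94.2.

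The median gene had a log2 ratio of -0.12 (SD 0.47 over genes), and TMM scaling brought that median to 0.011. Relative to that median, the ratios were -1.20 for Rnase13, -0.59 for Rnase10, -0.41 for Rnase9 and -0.018 for Rnase11. On the higher side they were 0.21 for Rnase6, 0.43 for Rnase12, 0.50 for Rnase1, 0.60 for Ang and 0.73 for Rnase4. All 4 genes with the full signature were higher in replicate 2 under each scaling tried. Rnase4 and Ang share a start region, however, so these are not 4 separate observations, and the counting intervals of Rnase6 and Rnase1 overlapped. The share of all genes higher in replicate 2 was not counted, so the direction cannot be called a trait of the set. Of the 5 without it 4 were higher in replicate 1, but Rnase11 turned to 0.0023 with DESeq2 size factors, which made the split of all 9 genes 6 higher and 3 lower in replicate 2 instead of 5 and 4. Rnase12 was the exception under every scaling tried.

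The epididymal markers shifted with Rnase9, Rnase10 and Rnase13, though not all of them. Of 15 markers 13 were higher in replicate 1, with a median log2 ratio of -0.59 and a range of -1.32 to 0.81. The median of the 14875 genes, -0.12, lay on the same side. The share of those genes higher in replicate 1 was not counted, so this direction cannot be called particular to epididymal genes. Their summed level was 33358 TPM in replicate 2 (13.4 to 6082) and 46406 TPM in replicate 1 (20.8 to 9518). Gpx5, an epididymal glutathione peroxidase, stood at 6082 TPM in replicate 2 and 9518 TPM in replicate 1. Lcn8, a lipocalin of the proximal epididymis, stood at 3137 TPM in replicate 2 and 7811 TPM in replicate 1, the lowest ratio of the list. Defb25 differed less, at 5298 TPM in replicate 2 and 6533 TPM in replicate 1. Crisp1, a cysteine-rich secreted epididymal protein, was one of the exceptions, at 2545 TPM in replicate 2 and 1453 TPM in replicate 1. Defb48 was the other and was nearly level, at 4393 TPM in replicate 2 and 4374 TPM in replicate 1. The 10 adipocyte markers were split, with 5 higher in replicate 2 and 5 higher in replicate 1, and summed to 19925 TPM in replicate 2 (473.6 to 5790) and 19783 TPM in replicate 1 (92.1 to 6724). The 6 spermatid markers, 5 of them expressed, summed to 347.3 TPM in replicate 2 (0.43 to 171.8) and 530.7 TPM in replicate 1 (0.76 to 222.7). The 5 seminal vesicle and prostate markers summed to 41.5 TPM in replicate 2 (0.050 to 25.1) and were all listed at 0 in replicate 1. The part of any of these tissues in the shifts of the RNase genes was not tested.

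**Figure D5:**
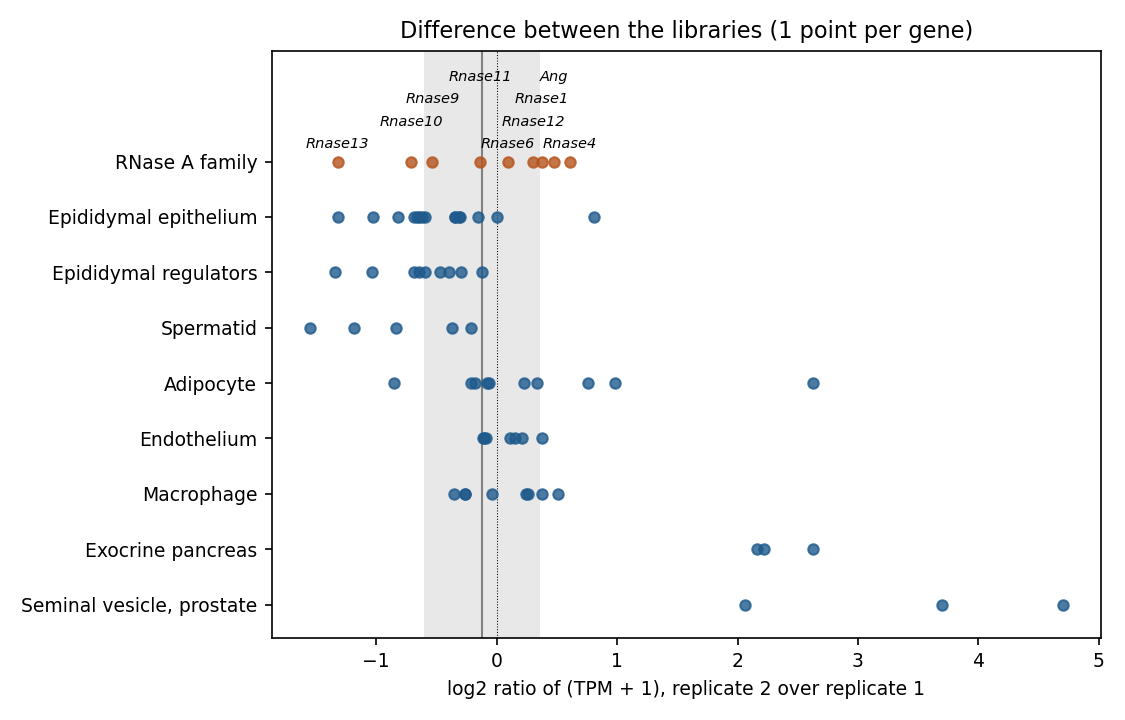
log2 ratio of (TPM + 1), replicate 2 over replicate 1, for the 9 RNase A genes and for listed marker genes at a mean of 1 TPM or more, 1 point per gene. The grey line and band are the median of -0.12 and 1 SD of 0.47 over 14875 genes, and Rnase13, Rnase10 and Rnase9 lie on the side of most epididymal markers while Rnase4, Ang, Rnase1 and Rnase12 lie on the other.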

How the data were processed

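Strand-specific libraries of polyadenylated RNA over 200 nt, read as 76 nt pairs per the labels, gave gene and transcript tables on mm10 with GENCODE annotation M4, per the accompanying notes. The sources used here name neither aligner nor quantifier. Per the file headers, the authors deposited an expected count (estimated fragments, not whole), TPM, FPKM, the percent of gene TPM per transcript, and score-like columns (posterior SD of the count and TPM bounds). Of 69691 rows, 43346 were Ensembl genes, 42462 with a symbol. Rows of no gene, among them 96 spike-in rows, held 1.83% of counts in replicate 2 and 2.28% in replicate 1. They were left out, though the authors' TPM sums over every row. Of these counts, the 26248 rows without a gene name held 2 in replicate 2 and 0 in replicate 1.

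The members and lists were chosen with earlier results of these data known. Named genes were the 9 members, up to 4 leading expressed genes and near-zero members of each list, and the 6 highest neighbours. Crisp1, Rnase2a, Olfr750, Prss2, Svs2, Svs4, Svs5 and the downstream transcripts of Rnase4 and Ang fall outside that rule and were chosen after their values were seen. Likeness to other genes was not computed, since 2 libraries give no pattern. Log2 ratios used (TPM + 1), which understates low genes. Scaling alternatives used edgeR 4.0.16 (TMM) and DESeq2 1.42.0 on rounded counts. The 2-fold rule was tried on simulated libraries with counting error only. Those lack the wider spread between the real libraries, so the rate of wrong calls here was not tested. Chi-square per degree of freedom between the libraries was 136.1 over 19548 genes, so they are not copies. A planned comparison of proteins was replaced by the search of coding sequences. Junctions and contigs on mm9 were not used here. Some listed items are not reported here.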

Additional observations from a re-analysis of the deposited data

How the results depend on the processing

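Of 9 members, 9 were expressed at 0.5 TPM, with posterior mean TPM and in each library alone, and 8 at 5 TPM, where Rnase1 was lost. The count of members over 2-fold apart was 1 with no count minimum, a minimum of 100, a pseudocount of 0.1, TMM, DESeq2 size factors, and after division by the median ratio (chosen after seeing the data). Over all genes that count was 456, but 1018 with DESeq2 size factors and 1074 with a pseudocount of 0.1. The median log2 ratio of the members was 0.093 and ranged to 0.26 (DESeq2). Rnase10 took 40.0% of family TPM, 36.1% to 43.9% by library, but 57.9% of family fragments, which carry no length scaling. By fragments Rnase12 took 6.69% instead of 19.9% and Rnase13 4.46% instead of 11.0%, both then below Rnase4 at 10.02%. The upstream Ang transcript took 93.5% of Ang TPM, 92.9% to 94.1% by library, and 90.5% of its fragments. Summed TPM was 1898 to 2554 by library. No ratio exists without a replicate. No paired analysis was possible because both libraries belong to 1 group. Members at few fragments, such as Rnase1 and the downstream Ang transcript, are limited by depth.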

Other observations

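Transcripts of secretory genes of male glands and pancreas differed between the libraries. The seminal vesicle genes Svs5, Svs4 and Svs2 had 463, 282 and 209 fragments in replicate 2 and 0 fragments each in replicate 1. The pancreatic protease genes Ctrb1 and Prss2 had 839 and 221 fragments in replicate 2 and 89 and 21 in replicate 1. Rnase1 had 191 fragments in replicate 2 and 113 in replicate 1, a smaller difference than that of either protease.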
